A study of Mus musculus with 5 samples.

Results

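The lung mesenchyme transcription factors examined here are 10 genes chosen by symbol, *Tbx2*, *Tbx3*, *Tbx4*, *Tbx5*, *Tcf21*, *Foxf1*, *Foxf2*, *Meox2*, *Gli1* and *Osr1*, out of 21835 genes in the deposited expression table. All 10 are in the table. The rule names them and uses no measured value, but it was set with earlier results of these data known. They were read in cultured murine lung cancer-associated fibroblasts (CAFs), the fibroblasts of a tumor's stroma. The 2 CAF-vec samples came from wild-type control CAFs carrying an empty lentiviral vector, and the 3 CAF-200 samples from CAFs into which miR-200b, miR-200a and miR-429 were introduced as 1 cluster by lentivirus. Cells were selected with G418 and grown in alpha-MEM with serum, and no animal age, transgene promoter or number of clones is given in the sources used here. Nothing says that the samples of a group were separate cultures or animals, so the *p* values below measure only the spread between these samples, which may be technical. CAF-200 is set against CAF-vec throughout, so a positive fold-change means a higher value with miR-200 overexpressed.

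Lung mesenchyme is the connective tissue that forms around the branching airway, and its cells keep a set of transcription factors that record where in the body they arose. T-box factors bind DNA through a shared domain and govern limb, heart and lung outgrowth, with *Tbx4* and *Tbx5* acting in the mesenchyme of the lung bud and trachea and *Tbx2* and *Tbx3* acting largely as repressors. The forkhead factors *Foxf1* and *Foxf2* are switched on in mesenchyme by hedgehog ligand from the epithelium, and *Gli1* is both a transcription factor of that pathway and a usual readout of its activity. *Tcf21* is a basic helix-loop-helix factor of lung lipofibroblasts, *Meox2* is a homeobox factor of mesoderm, and *Osr1* is a zinc-finger factor of lateral plate and foregut mesenchyme.

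MicroRNAs of the miR-200 family bind messenger RNAs chiefly through bases 2 to 8, the seed. The mature strands expressed here are shown with that seed in capitals, because miR-200b and miR-429 share 1 seed while that of miR-200a differs from it by a single base. They are RefSeq sequences of GRCm38.p6, and all 3 lie on the minus strand of chromosome 4 (chr4:156055685-156055706 for miR-200b-3p, chr4:156053916-156053937 for miR-429-3p and chr4:156054911-156054932 for miR-200a-3p).
miR-200b-3p: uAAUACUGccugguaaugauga
miR-429-3p: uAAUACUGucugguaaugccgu
miR-200a-3p: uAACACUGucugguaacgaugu

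The complement of a seed occurred in the longest annotated 3′-UTR of 4 of the 10 genes. The motifs searched, on the transcript strand, were CAGTATT for miR-200b and miR-429 and CAGTGTT for miR-200a. The 30-base windows of those matches (GRCm38, GENCODE M21, all genes on the plus strand) are shown because they let the fold-changes below be set beside the presence of a match, with the match in capitals.
Tbx5, miR-200b/miR-429, match at chr5:119884702-119884708: aagcagaaaaaCAGTATTaaaaaaaaagtg
Tbx5, miR-200a, match at chr5:119883890-119883896: actctgtgtctCAGTGTTaatgttgacttt
Foxf1, miR-200b/miR-429, match at chr8:121087797-121087803: ctctgccctctCAGTATTaatggtgtgact
Foxf2, miR-200b/miR-429, match at chr13:31631210-31631216: aaagtggctctCAGTATTgtgacagtacat
Tbx4, miR-200a, match at chr11:85914789-85914795: ccatgtcaatcCAGTGTTaatctctgtggg
In 4 of the windows the match is followed by an A, and in that of *Foxf2* it is not. *Tbx2*, *Tbx3*, *Tcf21*, *Meox2*, *Gli1* and *Osr1* hold neither motif in this window of annotation. Of the genes tested, 30.3% hold at least 1 of the motifs in their longest 3′-UTR, 15.7% the first and 20.9% the second. *Tbx4*, 1 of the 4 genes with a match, was not tested. Of all genes in the table with an annotated 3′-UTR, 25.8% hold at least 1 motif, 13.3% the first and 17.2% the second. A match is a description of letters and was not tested as a site.

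The deposited values are in CPM (a gene's reads scaled to a common total), normalized by the authors, so every sample has almost the same total and how deeply each one was sequenced is not known. The CAF-vec samples differed from each other more than the CAF-200 samples did, with an SD of the log2 difference across genes of 0.49 between the CAF-vec samples against 0.19 to 0.20 between pairs of CAF-200 samples. The microRNAs themselves are not measured in these libraries. Fibroblast markers summed to 14898 and 18592 CPM at the ends of the CAF-vec range and to 12696 and 13655 CPM in CAF-200, and *Col1a1* and *Vim* were among the highest. Epithelial markers were at or under 1.28 CPM in sum, with *Krt18*, *Sftpc*, *Sftpa1* and *Nkx2-1* listed at 0 in every sample. The summed endothelial list ranged from 1.98 to 3.37 CPM for CAF-vec and from 0.902 to 1.12 CPM for CAF-200, with *Kdr* its highest gene and *Pecam1*, *Cdh5* and *Vwf* detected in every sample at 0.288 CPM or less. Of the defining endothelial and immune markers, *Cldn5*, *Tie1*, *Emcn*, *Adgre1* and *Cd3e* were listed at 0, and *Ptprc* did not exceed 0.0404 CPM. The macrophage markers *Cd68* and *Csf1r* were detected at 2.25 to 5.01 and 2.29 to 4.97 CPM, and the sum of the immune list was 8.34 to 9.40 CPM for CAF-vec samples against 12.2 to 12.9 CPM for CAF-200 samples. The label of the cells as fibroblasts was thus met by their markers, except that 1 of 13, *Fap*, was too low to be tested. Of 10 smooth muscle and pericyte markers, 8 were tested, of which 3 (*Acta2*, *Tagln* and *Cnn1*) were higher, 0 lower and 5 did not pass, with a median log2 fold-change of 0.019. Their summed level in CAF-vec, 170 to 182 CPM, stood against 1021 to 1130 CPM for CAF-200, carried by *Acta2* (means of 109 and 674 CPM) and *Tagln* (45.6 and 345 CPM). The *Acta2* values ran against the paper, which reports less α-SMA (the *Acta2* protein) by staining of CAF-200. The reason for that difference was not tested. *Cspg4* (-0.41), *Notch3* (-0.31) and *Mcam* (0.02), pericyte markers, did not pass, and *Myh11* and *Rgs5* were under 0.1 CPM in all samples. Of 12 fibroblast markers tested, 4 were higher (*Dcn*, *Lum*, *Thy1* and *Fn1*) and 0 lower. Over all genes tested 11.9% were higher and 18.6% lower. *Fn1* did not pass without any 1 of the CAF-200 samples (adjusted *p* = 0.173 to 0.181, limma). The fibroblast markers also depended on the CAF-vec sample used. Their median log2 fold-change, 0.10 with all samples, was 0.02 without CAF-vec 1 and 0.34 without CAF-vec 2. Among low markers of other cells, *Kdr* (1 endothelial marker tested) and *Msln* (1 of 2 mesothelial markers tested) were lower and *Lyz2* (1 of 3 immune markers tested) was higher, all under 8 CPM. The part of this shift in the values of the 10 genes was not tested, and a change in the share of cells of a type cannot be told apart from a change in RNA per cell in bulk samples.

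Of the 10 factors, 6 were expressed highly enough to be tested, 1 was at trace level and 3 were listed at 0 in all 5 samples. Levels between genes are compared as CPM per kb of exon. *Osr1* stood highest, with a mean of 64.9 CPM per kb in CAF-vec and 58.2 CPM per kb in CAF-200, and 11.2% of the genes tested had a higher CPM than *Osr1* had. *Foxf1* followed at 12.6 and 12.4 CPM per kb. The next places belonged to *Foxf2* at 3.31 and 4.96 CPM per kb and *Tbx3* at 3.06 and 3.82 CPM per kb, whose values overlapped in CAF-vec. In CAF-200 the lowest *Foxf2* value, 4.36 CPM per kb, lay just above the highest *Tbx3* value, 4.24 CPM per kb. *Tbx5* had 1.97 and 1.66 CPM per kb and *Tbx2* 0.941 and 0.604 CPM per kb. No other neighbours in this order overlapped in either group, and CAFs of both groups thus shared 1 order of levels of their means, from *Osr1* to *Tbx2*.

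**Figure D1:**
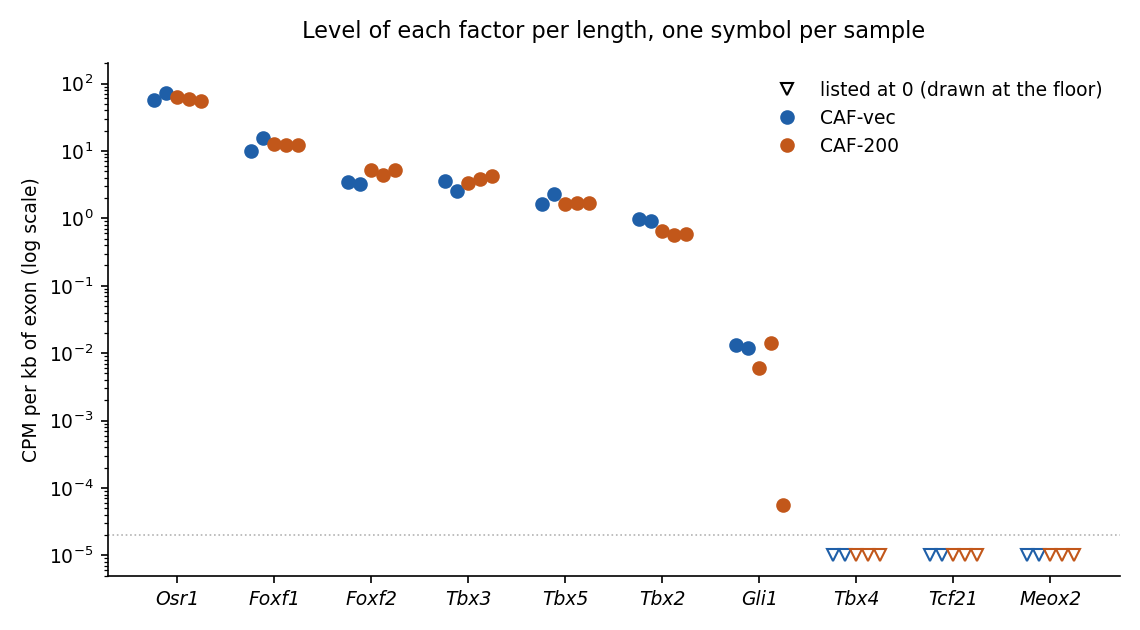
Level of each of the 10 factors in CPM per kb of exon on a log axis, with 1 symbol per sample (blue, CAF-vec; orange, CAF-200) and open triangles below the dotted line for genes listed at 0. *Osr1* sat above 54 CPM per kb in all 5 samples, *Gli1* at or below 0.0143 CPM per kb, and *Tbx4*, *Tcf21* and *Meox2* were at 0 throughout.

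*Tbx4*, *Tcf21* and *Meox2* were listed at 0 in both CAF-vec and all 3 CAF-200 samples. An exact 0 in a table of normalized values may be a failed estimate, but 0 of 73 ribosomal protein genes were at 0 in every sample and 0 of 6 housekeeping genes in any. *Gli1* (ENSMUSG00000025407) was 0.0668 and 0.0592 CPM in CAF-vec and 0.0304, 0.0714 and 0.000275 CPM in CAF-200. Values above 0 but under 0.005 CPM occur for 816 to 1108 genes in each CAF-200 sample and for 0 genes in either CAF-vec sample, so such a value is not read here as different from 0. The *Gli1* values overlap and lie far below the 0.5 CPM required in 2 samples for testing, so *Gli1* was at trace level in both groups and no fold-change is given.

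The calls among the 6 tested factors went in both directions. By limma, with *p* values adjusted by Benjamini-Hochberg over the 12175 genes tested, 1 factor (*Tbx2*) was lower in CAF-200, where 18.6% of all genes tested were lower, and 1 (*Foxf2*) was higher, where 11.9% of all genes tested were higher. The other 4 did not pass an adjusted *p* of 0.05. In 2 of the 6 the CAF-200 values did not overlap the CAF-vec values, against 61.6% of all genes tested. None passed the study's thresholds, that is, a log2 fold-change beyond 1 with an adjusted *p* under 0.01, which 4.72% of all genes tested did. At an unadjusted *p* under 0.05 there were 2, against 44.9% of all genes tested. Their median log2 fold-change was -0.067, against -0.094 over all genes tested. It was 0.17 with GC removed, -0.31 without CAF-vec 1 and 0.058 without CAF-vec 2, so its sign was not stable. After centring each sample on its median, the share of all calls that were lower was 48.4%, and 51.5% after quantile normalization, against 61.0% as deposited, with *Tbx2* lower and *Foxf2* higher under both.

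**Figure D2:**
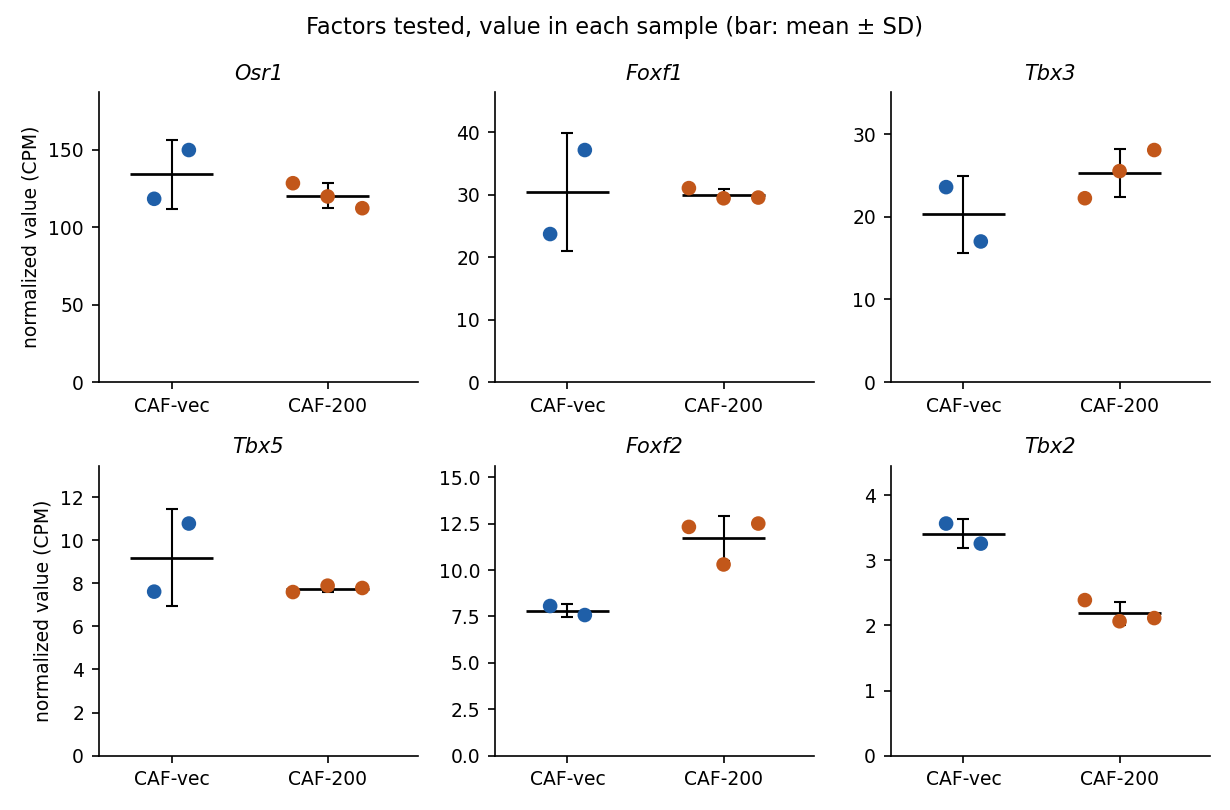
Normalized value (CPM, axes from 0) of the 6 tested factors in each sample, with bars for the mean ± SD of each group (n = 2 and n = 3). The groups separate for *Tbx2* and *Foxf2* and overlap for *Osr1*, *Foxf1*, *Tbx3* and *Tbx5*. The CAF-vec samples lie farther apart in the overlapping factors than in *Tbx2* and *Foxf2*.

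*Tbx2* (ENSMUSG00000000093, chr11:85832551-85841948, plus strand), a repressor of cell-cycle inhibitor genes, was 3.57 and 3.26 CPM in CAF-vec and 2.39, 2.06 and 2.11 CPM in CAF-200. Both CAF-vec samples were above all 3 CAF-200 samples. The CAF-vec mean was 3.41 ± 0.218 CPM (SD, n = 2) and the CAF-200 mean 2.19 ± 0.175 CPM (SD, n = 3), which gave a log2 fold-change of -0.54 on the log2(CPM + 0.5) scale with a standard error of 0.125 (limma, adjusted *p* = 0.0256). Without any 1 of the CAF-200 samples the log2 fold-change was -0.59 to -0.51 and did not pass (adjusted *p* = 0.0746 to 0.110, limma), in fits where 3.96 to 5.74% of all genes tested were lower and 3.56 to 4.34% higher. *Tbx2* has a transcript of 63.2% GC, higher than 99.0% of the genes tested, and the 500 tested genes nearest to it in GC had a median log2 fold-change of -0.43, with 37.4% of them below *Tbx2*. With the dependence on GC removed from each sample by loess, an alternative chosen after seeing the data, its log2 fold-change was -0.04 (adjusted *p* = 0.832, limma), so the call was lost.

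*Tbx3* (ENSMUSG00000018604, chr5:119670669-119684724), the closest relative of *Tbx2* and likewise a repressor, was 23.6 and 17.01 CPM in CAF-vec and 22.2, 25.5 and 28.1 CPM in CAF-200. The lowest CAF-200 value sat between the CAF-vec values. Its log2 fold-change was 0.32 (limma, standard error 0.172, adjusted *p* = 0.199), with a 95% interval from -0.10 to 0.75. It was 0.50 with GC removed (adjusted *p* = 0.0588, limma), 0.55 without CAF-vec 1 (adjusted *p* = 0.0102, limma) and 0.09 without CAF-vec 2. The ratio of *Tbx2* to *Tbx3* per kb was 0.276 and 0.350 in CAF-vec and 0.196, 0.148 and 0.138 in CAF-200, so that *Tbx3* outweighed *Tbx2* in every sample. The log2 ratio differed by -0.97 between the groups (*p* = 0.1, exact two-sided permutation test, the smallest that 10 arrangements allow). The fitted log2 fold-changes of the pair differed by -0.86, and by -0.55 with GC removed. Of 4 such ratios examined, 3 gave this *p* (0.133 after Benjamini-Hochberg adjustment over the 4, exact permutation test).

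*Tbx5* (ENSMUSG00000018263, chr5:119832668-119885219), which acts upstream of growth factor signals in the lung bud, was 7.61 and 10.8 CPM in CAF-vec and 7.59, 7.89 and 7.78 CPM in CAF-200. The CAF-200 samples lay close together near the lower CAF-vec sample. The ratio of *Tbx5* to *Tbx3* per kb was 0.457 and 0.897 in CAF-vec and 0.484, 0.438 and 0.393 in CAF-200, and the groups overlapped (*p* = 0.2, exact two-sided permutation test). The log2 fold-change was -0.21 (standard error 0.158, 95% interval -0.60 to 0.18, adjusted *p* = 0.335, limma). It was -0.11 with GC removed, -0.45 without CAF-vec 1 (adjusted *p* = 0.00935, limma) and 0.02 without CAF-vec 2. *Tbx5* is the only one of the factors with a match to both seeds.

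*Foxf1* (ENSMUSG00000042812, chr8:121084386-121088144), a hedgehog-induced factor needed for lung vessels and mesenchyme, was 23.7 and 37.2 CPM in CAF-vec and 31.1, 29.5 and 29.6 CPM in CAF-200. All CAF-200 values lay between the CAF-vec values. The log2 fold-change was 0.01 with a standard error of 0.190 and a 95% interval from -0.46 to 0.48 (adjusted *p* = 0.957, limma). Its direction was set by the CAF-vec sample used, being -0.30 without CAF-vec 1 (adjusted *p* = 0.0143, limma) and 0.33 without CAF-vec 2 (adjusted *p* = 0.00693, limma).

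*Foxf2* (ENSMUSG00000038402, chr13:31625816-31631403, plus strand), the paralog of *Foxf1*, was 8.07 and 7.58 CPM in CAF-vec and 12.3, 10.3 and 12.5 CPM in CAF-200. All 3 CAF-200 values lay above both CAF-vec values. The CAF-vec mean was 7.82 ± 0.345 CPM (SD, n = 2) and the CAF-200 mean 11.7 ± 1.22 CPM (SD, n = 3), which gave a log2 fold-change of 0.55 with a standard error of 0.122 (limma, adjusted *p* = 0.0228), or 1.46-fold. Without any 1 of the CAF-200 samples it was 0.50 to 0.64 and did not pass (adjusted *p* = 0.0518 to 0.103, limma). Its transcript has 59.8% GC, and the 500 tested genes nearest in GC had a median log2 fold-change of -0.40, with 95.8% of them below *Foxf2*. With GC removed, its log2 fold-change was 0.93 (limma, standard error 0.127, adjusted *p* = 0.00602), which is over 1.5 times the value without that step. The ratio of *Foxf2* to *Foxf1* per kb was 0.347 and 0.208 in CAF-vec and 0.405, 0.357 and 0.432 in CAF-200, so *Foxf1* was the more abundant of the pair in every sample. The log2 ratio was 0.56 higher in CAF-200 (*p* = 0.1, exact two-sided permutation test, the smallest possible).

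*Osr1* (ENSMUSG00000048387, chr12:9570116-9581500) was 118 and 150 CPM in CAF-vec and 128, 120 and 112 CPM in CAF-200. Only the lowest CAF-200 value lay outside the CAF-vec values. Its log2 fold-change was -0.15 (standard error 0.131, 95% interval -0.47 to 0.17, adjusted *p* = 0.410, limma), and it was 0.13 with GC removed, -0.32 without CAF-vec 1 (adjusted *p* = 0.0178, limma) and 0.02 without CAF-vec 2.

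The 4 factors without a call had a wider gap between the CAF-vec samples than *Tbx2* and *Foxf2* had. On the log2(CPM + 0.5) scale that gap was 0.64 for *Foxf1*, 0.47 for *Tbx5*, 0.46 for *Tbx3* and 0.34 for *Osr1*. It was 0.11 for *Tbx2* and 0.085 for *Foxf2*. The SD of that difference across genes was 0.49, and only the gap of *Foxf1* exceeded it. A wide gap also raises the standard error on which a call rests. CAF-vec 2 was the higher sample for *Foxf1*, *Tbx5* and *Osr1* and the lower one for *Tbx3*. Set against CAF-vec 2 alone, *Tbx2*, *Tbx5*, *Foxf1* and *Osr1* were lower and *Tbx3* and *Foxf2* higher at an adjusted *p* under 0.05 (limma), where 27.0% of all genes tested were lower and 20.1% higher. Set against CAF-vec 1 alone, 1 factor (*Tbx2*) was lower and 2 (*Foxf2* and *Foxf1*) were higher, where 39.7% of all genes tested were lower and 24.9% higher. In both fits the lone CAF-vec sample is assumed to vary as the CAF-200 samples do. *Tbx2* and *Foxf2* kept their direction and their call against either CAF-vec sample.

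**Figure D3:**
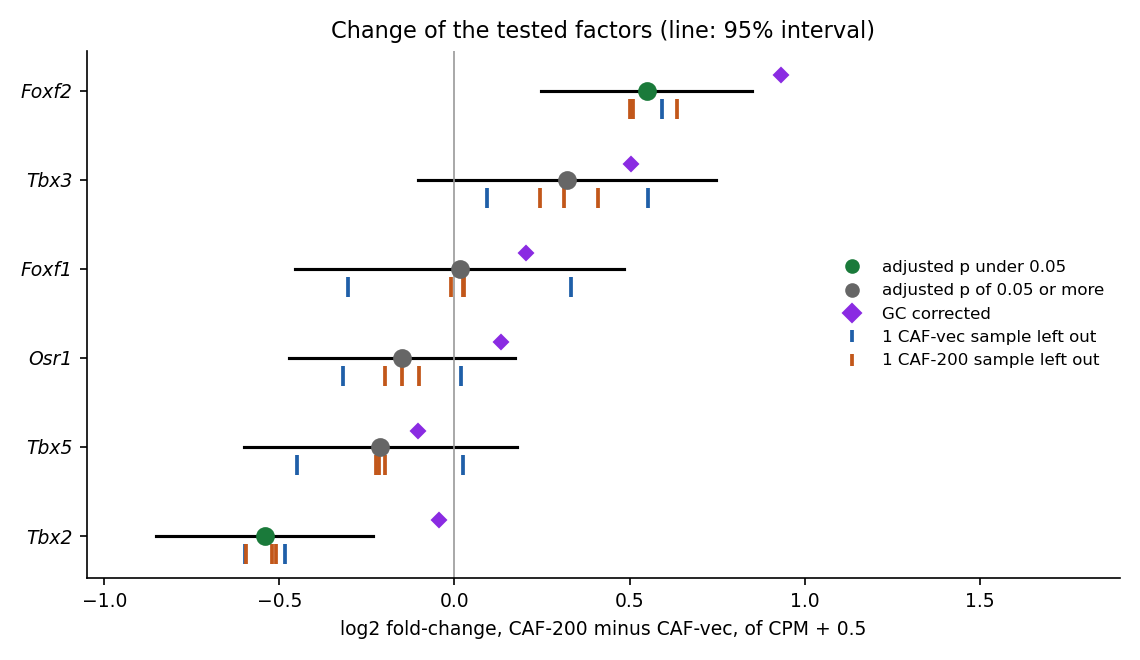
Log2 fold-change (CAF-200 minus CAF-vec, of CPM + 0.5) of the 6 tested factors, with lines for the 95% interval, ticks for the value with 1 sample left out and diamonds for the value with GC removed. *Tbx2* moves from -0.54 to -0.04 and *Foxf2* from 0.55 to 0.93 with GC removed, and the blue ticks of *Foxf1* lie on both sides of 0.

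Across all genes tested, the fold-change moved with GC content. The median log2 fold-change by deciles of transcript GC went from 0.12 in the lowest decile to -0.40 in the highest, where GC was 58.3% or more, and in that highest decile 32.8% of genes were lower and 5.36% higher (limma, adjusted *p* under 0.05). In the lowest decile 6.93% were lower and 17.3% higher. The CAF-vec samples differed between themselves along the same axis, with a median log2 difference of CAF-vec 1 from CAF-vec 2 of -0.15 in the lowest decile and 0.33 in the highest, while the pairs of CAF-200 samples spanned -0.03 to 0.09 in those deciles. *Tbx2* and *Foxf2* both belong to the highest decile and lie on opposite sides of its median. What causes the dependence was not tested.

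**Figure D4:**
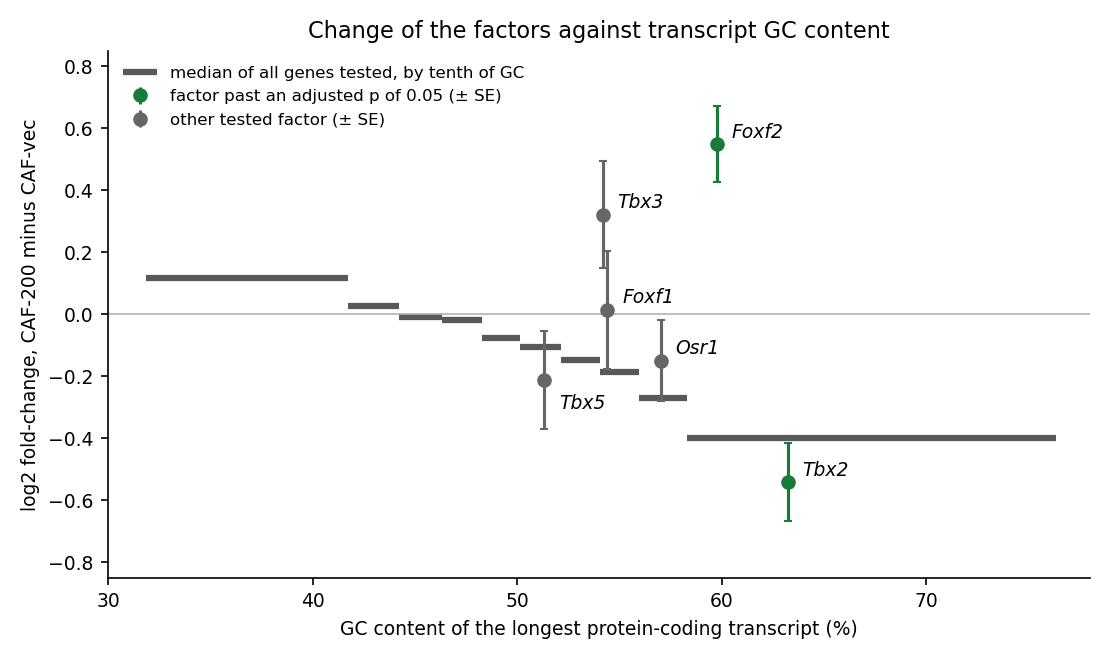
Log2 fold-change (CAF-200 minus CAF-vec) against the GC content of the longest protein-coding transcript, with grey bars for the median of all genes tested in each decile of GC and points for the 6 tested factors (± SE). The bars descend from 0.12 to -0.40, *Tbx2* lies near the last bar and *Foxf2* far above it.

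Some of the factors lie beside relatives in the genome. *Tbx2* and *Tbx4* start 53.9 kb apart on chromosome 11, and *Tbx2* was expressed while *Tbx4* was listed at 0. *Tbx3* and *Tbx5* start 162 kb apart on chromosome 5, and both were expressed. *Foxf2* and *Foxq1* start 69.7 kb apart on chromosome 13. *Foxq1*, another forkhead gene, was 1.08 and 0.838 CPM in CAF-vec and 0.301, 0.313 and 0.382 CPM in CAF-200. It fell by 0.80 on the log2 scale (limma, adjusted *p* = 0.0173). *Foxc1*, which starts 181 kb from *Foxf2*, and *Foxc2* and *Foxl1*, which start 31.8 and 43.6 kb from *Foxf1*, did not pass, at log2 fold-changes of 0.13, 0.37 and -0.24. With GC removed *Foxc1* (0.37) and *Foxc2* (0.83) were higher (adjusted *p* = 0.0438 and 0.00406, limma).

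Among the other T-box genes, 13 are in the table and 6 were tested, of which 1 was lower and 1 higher. Of all genes tested 18.6% were lower and 11.9% higher. *Eomes*, a T-box activator of early mesoderm and lymphoid cells, was 1.09 and 1.28 CPM in CAF-vec and 0.181, 0.102 and 0.0620 CPM in CAF-200, for a log2 fold-change of -1.46 (limma, adjusted *p* = 0.00474). *Tbx18*, a marker of mesothelium-derived and mural cells, was 8.82 and 9.88 CPM against 12.8, 13.2 and 13.0 CPM (log2 fold-change 0.46 at an adjusted *p* of 0.0199 by limma). Both differences exceeded the spread between samples, and with GC removed their log2 fold-changes were -1.28 and 0.46. Without any 1 of the CAF-200 samples *Eomes* stayed the 1 gene of the list lower and 0 were higher. The list's median log2 fold-change, 0.09 with all samples, was -0.13 without CAF-vec 1 and 0.31 without CAF-vec 2.

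Of the close paralogs of the 10 factors, 8 were tested, 2 were lower and 0 were higher, with 4 at an unadjusted *p* under 0.05 (limma). Over all genes tested 18.6% were lower, 11.9% higher and 44.9% at an unadjusted *p* under 0.05 (limma). With GC removed 2 of the paralogs were lower and 2 higher, and without any 1 of the CAF-200 samples 0 were either. Their median log2 fold-change was -0.25 with all samples, -0.25 without CAF-vec 1 and -0.24 without CAF-vec 2. *Meox1*, whose relative *Meox2* was listed at 0, was 1.47 and 0.706 CPM in CAF-vec and 0.331, 0.243 and 0.302 CPM in CAF-200 (log2 fold-change -0.96 at an adjusted *p* of 0.0330 by limma). Without CAF-vec 1 the log2 fold-change of *Meox1* was -0.61, and without CAF-vec 2 it was -1.31. *Foxq1*, described above, was the other lower gene. Under 1 CPM on average in CAF-200, both are low genes whose fold-change is understated by the 0.5 CPM added.

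The hedgehog pathway was examined because *Foxf1*, *Foxf2* and *Gli1* lie downstream of it. Of 21 ligands, receptors and mediators, 15 were tested, 3 were lower and 0 were higher, with 5 at an unadjusted *p* under 0.05 (limma). Over all genes tested 18.6% were lower, 11.9% higher and 44.9% at an unadjusted *p* under 0.05 (limma). The median log2 fold-change of the list was -0.12, against -0.094 over all genes tested, or 0.10 with GC removed. The ligand *Shh* was listed at 0 in all samples, and *Ihh* and *Dhh* were at 0.131 CPM or less. The receptor *Ptch1*, itself a target gene of the pathway, was 5.15 and 6.05 CPM in CAF-vec and 6.02, 5.77 and 7.23 CPM in CAF-200 (log2 fold-change 0.16 at an adjusted *p* of 0.404 by limma). The signal transducer *Smo* had a log2 fold-change of 0.02 (limma, adjusted *p* = 0.838) at 105 to 111 CPM. *Hhip*, a ligand-binding inhibitor and target gene, was at 0 in CAF-vec and at no more than 0.0713 CPM in CAF-200. The pathway's usual target genes, *Gli1*, *Ptch1* and *Hhip*, thus gave no call, 2 of them being too low to be tested.

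*Gas1*, a membrane co-receptor for hedgehog ligand, was 755 and 315 CPM in CAF-vec and 98.8, 103 and 75.4 CPM in CAF-200. No CAF-200 sample reached either CAF-vec sample, and the CAF-vec samples themselves differed by more than 1 log2 unit. *Gas1* fell by 2.41 on the log2 scale (limma, standard error 0.372, adjusted *p* = 0.00884), and by 2.07 with GC removed. Without CAF-200 3 it did not pass, at -2.27 (adjusted *p* = 0.0513, limma). *Kif7*, a ciliary kinesin that regulates Gli proteins, and *Evc2*, a ciliary partner of Smo, had log2 fold-changes of -0.70 (limma, adjusted *p* = 0.0333) and -0.56 (adjusted *p* = 0.0424, limma). They were -0.43 and -0.33 without CAF-vec 1, and -0.96 and -0.79 without CAF-vec 2. With GC removed neither passed, at adjusted *p* = 0.0828 and 0.107 (limma), and 1 gene of the list was lower and 1 higher. Without 1 of the CAF-200 samples 0 or 1 gene of the list was lower. The list's median log2 fold-change was -0.18 without CAF-vec 1 and -0.10 without CAF-vec 2.

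The Gli genes differed in level. *Gli3*, mainly a repressor, was 12.6 and 17.5 CPM in CAF-vec and 17.3, 17.5 and 17.3 CPM in CAF-200 (log2 fold-change 0.22 at an adjusted *p* of 0.297 by limma). *Gli2*, the main activator, was 0.581 and 0.769 CPM against 0.321, 0.352 and 0.283 CPM (log2 fold-change -0.52 at an adjusted *p* of 0.0597 by limma). With GC removed *Gli2* had a log2 fold-change of -0.21 (limma, adjusted *p* = 0.433) and *Gli3* one of 0.27. The ratio of *Gli2* to *Gli3* per kb was 0.0644 and 0.0614 in CAF-vec and 0.0260, 0.0281 and 0.0229 in CAF-200, a log2 difference of -1.30 (*p* = 0.1, exact two-sided permutation test, the smallest possible). The fitted log2 fold-changes of this pair differed by -0.74, and by -0.49 with GC removed. *Gli3* was thus the predominant Gli transcript in all 5 samples.

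**Figure D5:**
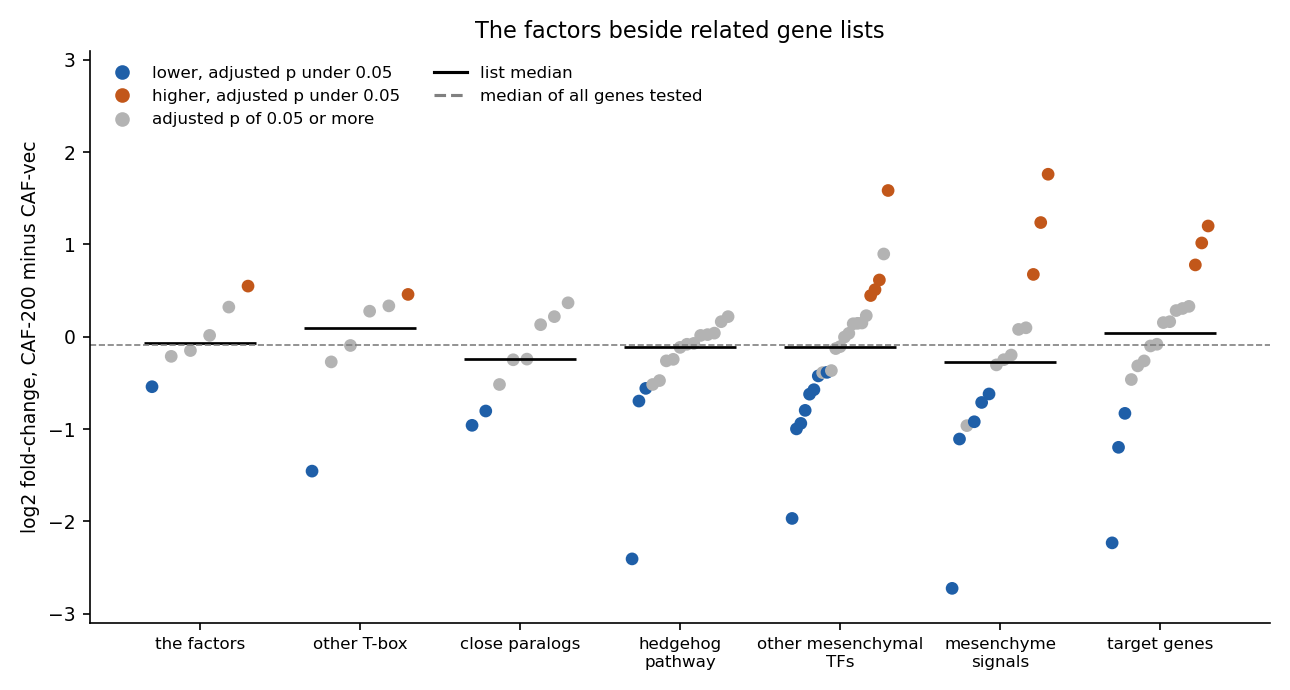
Log2 fold-change (CAF-200 minus CAF-vec) of every tested gene in the list of factors and in 6 related gene lists, colored by call, with a black line for each list's median and a dashed line for the median of all genes tested, -0.094. The 6 factors span -0.54 to 0.55, and genes beyond 1 in both directions occur in the lists of other mesenchymal factors, mesenchyme signals and target genes.

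Of 30 other transcription factors of mesenchyme, 23 were tested, 8 were lower and 4 higher. Over all genes tested 18.6% were lower and 11.9% higher. *Foxd1*, a forkhead factor of stromal progenitors, was 6.05 and 3.92 CPM in CAF-vec and 0.951, 0.814 and 0.863 CPM in CAF-200 (log2 fold-change -1.97 at an adjusted *p* of 0.00343 by limma). *Gata6* (-0.999), *Mef2c* (-0.94) and *Hoxb5* (-0.62) were lower as well. *Hoxb5*, a homeobox gene of the lung field, did not pass with GC removed (adjusted *p* = 0.0580, limma). *Ebf2*, a factor of mesenchymal progenitors, was 0.445 and 0.338 CPM in CAF-vec against 2.23, 2.06 and 2.22 CPM in CAF-200 (log2 fold-change 1.59 at an adjusted *p* of 0.00284 by limma). *Foxp1*, a forkhead repressor, was 90.7 and 110 CPM against 136, 131 and 141 CPM (log2 fold-change 0.45 at an adjusted *p* of 0.0308 by limma). Without 1 of the CAF-200 samples 1 or 2 of the list were lower and 1 was higher. In those fits 3.96 to 5.74% of all genes tested were lower and 3.56 to 4.34% higher. With GC removed 7 of the list were lower and 5 higher, where 13.8% of all genes tested were lower and 15.4% higher. The list's median log2 fold-change, -0.11 with all samples, was -0.15 without CAF-vec 1 and -0.02 without CAF-vec 2.

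Of 20 signals of lung mesenchyme tied to these factors, 14 were tested, 5 were lower and 3 higher. Over all genes tested 18.6% were lower and 11.9% higher. The list's median log2 fold-change was -0.28. With GC removed 4 were lower and 3 higher and the median was -0.12, and it was -0.19 without CAF-vec 1 and -0.43 without CAF-vec 2. Without any 1 of the CAF-200 samples 3 of the list were lower and 2 higher. In those fits 3.96 to 5.74% of all genes tested were lower and 3.56 to 4.34% higher. *Fgf10*, the ligand by which *Tbx4* and *Tbx5* direct branching, was 21.6 and 23.1 CPM in CAF-vec and 11.2, 11.6 and 11.9 CPM in CAF-200 (log2 fold-change -0.92 at an adjusted *p* of 0.00331 by limma). *Rspo2*, an enhancer of Wnt signaling, was 87.1 and 91.5 CPM against 12.9, 14.4 and 11.9 CPM (log2 fold-change -2.73 at an adjusted *p* of 8.4e-04 by limma). The groups were far apart for both, with CAF-vec samples close to each other. The receptor *Fgfr2* (-1.11) and the integrin *Itga8* (-0.71) were lower, and *Fgf7* (1.24) and *Wnt11* (1.76) were higher. *Bmp4*, a ligand that Foxf factors sustain in gut mesenchyme, was 29.1 and 55.1 CPM in CAF-vec and 18.4, 26.8 and 16.95 CPM in CAF-200. Its groups did not overlap, and its log2 fold-change of -0.96 did not pass (adjusted *p* = 0.0677, limma). *Wnt2*, a mesenchymal Wnt ligand controlled by *Tbx5*, was at 0 in CAF-vec and at 0.252 CPM or less in CAF-200.

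Of 19 genes described as targets of T-box factors, *Meox2* or *Gli1*, 16 were tested, 3 were lower and 3 higher. Over all genes tested 18.6% were lower and 11.9% higher. Without any 1 of the CAF-200 samples 2 of the list were lower and 2 higher. The list's median log2 fold-change, 0.04 with all samples, was 0.22 without CAF-vec 1 and -0.06 without CAF-vec 2. *Cdkn2a* and *Cdkn2b*, the cell-cycle inhibitor genes that *Tbx2* and *Tbx3* repress, were lower. *Cdkn2a* was 160 and 115 CPM in CAF-vec and 75.0, 77.7 and 75.7 CPM in CAF-200 (log2 fold-change -0.83 at an adjusted *p* of 0.0136 by limma, and -0.43 with GC removed). Without any 1 of the CAF-200 samples *Cdkn2a* did not pass (adjusted *p* = 0.0614 to 0.0700, limma). *Cdkn2b* was 75.3 and 59.4 CPM against 29.6, 32.2 and 25.2 CPM (log2 fold-change -1.20 at an adjusted *p* of 0.00570 by limma). For both genes no CAF-200 sample reached the lower CAF-vec sample. The other inhibitor genes of the list did not pass, with log2 fold-changes of 0.31 for *Cdkn1a*, -0.26 for *Cdkn1b* and -0.08 for *Cdkn1c*. With GC removed *Cdkn1a* was higher, at 0.50 (limma, adjusted *p* = 0.0199). *Ndrg1*, a growth-arrest gene repressed by *Tbx2*, had a log2 fold-change of -2.23 (limma, adjusted *p* = 0.00605), at 39.0 and 19.6 CPM in CAF-vec and 6.35, 5.34 and 4.89 CPM in CAF-200. *Sfrp1* (1.20), *Mycn* (1.02) and *Ccn1* (0.78) were higher.

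By the root mean square distance of the centred log2(CPM + 0.5) values over the 5 samples, the genes whose profile lay nearest that of *Tbx2* were *Sec16a* (0.0143), *Btbd6* (0.0162) and *Usp21* (0.0266). Those nearest *Foxf2* were *Incenp* (0.0219), *Cd3eap* (0.0299) and *Unc5b* (0.0390). These genes had log2 fold-changes from -0.57 to -0.51 and from 0.53 to 0.54, respectively, and the distance over so few samples describes likeness only.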

How the data were processed

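Stranded mRNA libraries of 2 CAF-vec and 3 CAF-200 samples were sequenced. Per the labels, the submitters' processing notes name FastQC, cutadapt, Trimmomatic, STAR, RSEM and edgeR and the builds GRCm38 and mm10, without versions. The authors deposited 1 table of normalized CPM values, named for TMM, for 21835 genes, whose columns sum to 999956 to 1000111 CPM. Whole reads could not be recovered from them, so no count test was run and no counting interval is given. Labels and methods differ on the lentiviral vector and the RNA kit, and the methods speak of triplicates whereas 2 CAF-vec samples were analysed here. All 5 sample columns were used.

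The 12175 genes that reached 0.5 CPM in 2 or more samples entered limma 3.58.1 (R 4.3.3, lmFit, eBayes with a variance trend) as log2(CPM + 0.5) and Benjamini-Hochberg adjustment over them all. Adding 0.5 CPM understates the fold-changes of low genes. "Lower" and "higher" mean an adjusted *p* under 0.05. The test was tried on simulated data in which all 5 samples had the same spread. That trial therefore does not bear on the wider spread between the CAF-vec samples here. The 10 genes and all gene lists were chosen with earlier results of these data known. Named genes were the 10 factors, up to 6 genes of each list with the largest fold-change past the threshold, and *Ptch1*, *Hhip*, *Gli2*, *Gli3*, *Smo*, *Foxp1*, *Fgf10*, *Wnt2*, *Bmp4* and *Fendrr*, and for a factor with a call the 3 nearest profiles. Other genes (*Shh*, *Ihh*, *Dhh*, *Col1a1*, *Vim*, *Cdkn1a*, *Cdkn1b*, *Cdkn1c*, *Foxc1*, *Foxc2*, *Foxl1*, markers that did not pass and markers at or near 0) were named after their values were seen. Names, exon lengths, GC content (longest protein-coding transcript, known for 12119 of the genes tested) and 3′-UTRs came from GENCODE M21 (GRCm38), and microRNA sequences from RefSeq. *Fendrr* and 13 other non-coding neighbors were not analysed here. Loess used a span of 0.3. Alternatives are given in the closing section. The other steps used Python 3.11.15 with matplotlib 3.10.9, SciPy 1.17.1, numpy 2.4.6 and pandas 2.3.3.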

Additional observations from a re-analysis of the deposited data

How the results depend on the processing

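The counts of 1 factor lower and 1 higher held without a variance trend, after median-centring or quantile normalization, with a pseudocount of 0.1 or 1, and with the filter removed or raised to 1 CPM in all 5 samples. At an adjusted *p* under 0.01, 0 were lower and 0 higher. With the replicate number as a block, 0 were lower and 0 higher, where 6.998% of all genes tested were lower and 5.17% higher, and the log2 fold-changes of *Tbx2* and *Foxf2* were -0.52 and 0.50 (adjusted *p* = 0.124 and 0.102, limma). The groups share only that number, and only 2 pairs exist. The correlation of deviations from the group means was 0.25 for number 1 and 0.13 for number 2. It was 0.12 for CAF-vec 2 with CAF-200 3, which share no number. The deviations of the 2 CAF-vec samples mirror each other, so these values cannot establish a pairing. With GC removed, chosen after seeing the data, 0 were lower and 1 (*Foxf2*) was higher, both with and without the replicate block, and of all genes tested 13.8% were lower and 15.4% higher without it, so that most calls were then higher, and 7.01% and 9.45% with it. With 1 sample left out in turn, 0 to 4 factors were lower and 0 to 2 higher. Both counts were 0 without any 1 of the CAF-200 samples, while 4 were lower and 2 higher without CAF-vec 1, and 1 lower and 2 higher without CAF-vec 2. Calls over all genes moved likewise, with 482 to 699 lower and 434 to 528 higher without a CAF-200 sample, 3282 and 2446 without CAF-vec 1 and 4835 and 3031 without CAF-vec 2, against 2265 and 1446 with all samples. *Foxf1* turned to -0.30 without CAF-vec 1 and was 0.33 without CAF-vec 2. None of the 6 tested factors passed the study's thresholds under any of these settings. Over all alternatives the adjusted *p* ranged from 0.0111 to 0.900 for *Tbx2* and from 0.00602 to 0.103 for *Foxf2* (limma). The depth of the samples is unknown, so what it limits for *Gli1*, *Tbx4*, *Tcf21* and *Meox2* cannot be stated.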

Other observations

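*Zeb1* and *Zeb2*, transcription factors widely known as targets of miR-200, were looked up after the other values were seen. *Zeb1* was 43.5 and 50.7 CPM in CAF-vec and 37.8, 37.5 and 34.1 CPM in CAF-200, for a log2 fold-change of -0.36 with a standard error of 0.107 (limma, adjusted *p* = 0.0504). Its groups did not overlap, and it missed the threshold narrowly. *Zeb2* was 46.2 and 29.8 CPM in CAF-vec and 31.9, 31.8 and 31.1 CPM in CAF-200 (log2 fold-change -0.23 at an adjusted *p* of 0.374 by limma), with the CAF-200 values between the CAF-vec values.

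The gene neighborhoods of the factors differed in density. Within 500 kb on either side of *Osr1* the table holds no other gene, and within 500 kb of *Gli1* it holds 42, of which 31 were tested, 15 were lower and 0 higher in CAF-200, where 18.6% of all genes tested were lower, while *Gli1* itself was at trace level. This window was picked after its values were seen. Those of the other factors held only 0 to 8 tested genes, of which 0 or 1 was lower, as near *Foxf2* (1 of 2). *Gli1* has a transcript of 59.0% GC.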
